A study of Mus musculus with 30 samples.

Results

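Of the enzymes and transporters that take up glucose and burn it to lactate, to pentose phosphates or to acetyl-CoA, 34 genes were followed in mouse dendritic cells. The gene of the transcription factor IRF4 was targeted for deletion in some of these cells and left intact in the others. The genes were listed by name and by their textbook place in these routes, though earlier results of these data were known when the list was made. Of the 34, 32 had a probe named through its transcript accession, and Gapdh and Pgd had none. After a filter for signal, 31 of the 34 were tested among 11263 genes. The one that did not pass, Pdk4, was well above background on 1 of the 30 arrays. Of the 31, 30 were well above background on all 30 arrays and Pdk2 on 28, so the filter itself did not pick members that were high in 1 group.

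The cells were dendritic cells, which present antigen to T cells, grown in culture from the bone marrow of C57BL/6 mice. Control cells came from CD11c-Cre mice and KO cells from CD11c-Cre IRF-4 flox/flox mice, so both genotypes carried the Cre transgene. Cre driven by the CD11c promoter deletes the floxed Irf4 sequence in CD11c-expressing cells, and cells that do not express it keep the gene. Each genotype was left unstimulated (0 h) or received lipopolysaccharide (LPS), a bacterial cell wall component sensed by Toll-like receptor TLR4, for 6 or 24 h, and CD11c+ cells were then bead-selected. That gave 6 groups of 5 biological replicates on 30 two-colour arrays, with the sample in Cy5 and the same universal mouse reference RNA in Cy3 throughout. A level below is a log2 ratio of sample to reference, which can be set against the same gene on another array but not against another gene. The labels call the replicates biological without saying whether each was a mouse or a culture, and the p-values cover only the spread between these samples, which may in part be technical. The title of the series speaks of MHCII low and high subpopulations, which no sample label names, so how the samples relate to these is not known and they are taken as labelled. In bulk RNA a lower level per cell and fewer cells with the gene cannot be told apart.

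Glucose enters through the SLC2A (GLUT) transporters and is trapped as a phosphate by the hexokinases. Glycolysis then splits it to pyruvate, with phosphofructokinase as the main committed step and PFKFB3 and PFKFB4 setting the level of its activator fructose 2,6-bisphosphate. Pyruvate is either reduced to lactate by lactate dehydrogenase and exported by the MCT transporters, or enters the mitochondrion, where pyruvate dehydrogenase makes acetyl-CoA unless a PDK kinase has switched it off. The pentose phosphate route branches off before phosphofructokinase and yields NADPH and ribose. LPS-activated dendritic cells are known for a rapid turn to glycolysis, in part through HIF-1, a transcription factor that drives many of these genes.

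The targeted gene was read by 1 probe and differed between the genotypes as labelled. Its log2 ratio was 1.16 to 2.68 over the control arrays and -2.51 to 0.62 over the KO arrays, without overlap at any time. A signal remained in KO cells, well above background on 4 of 5 arrays at 0 h and on all 5 at 6 and 24 h. Its median at 0, 6 and 24 h was -1.06, -0.20 and -0.06 in KO cells and 1.32, 2.42 and 1.99 in control cells. The median Cy5 intensity of an array was 100 to 150, and 44.8 to 66.1% of probes were well above background. Of 12 dendritic cell markers 10 passed the filter (Flt3 and Kmo did not), and their mean log2 ratio was 3.24 to 3.47 on the unstimulated control arrays against 1.48 to 2.66 on the unstimulated KO arrays. Of those 10, 6 were lower in unstimulated KO cells, 5 at 6 h and 3 at 24 h. Macrophage markers (10 tested) averaged 1.76 to 2.99 in unstimulated control and 2.53 to 3.53 in unstimulated KO cells, and neutrophil markers (9 tested) 1.10 to 2.52 and 0.33 to 1.44. No slide of the 9 carried control and KO arrays of the same time, and 2 arrays (control 6 h replicate 3 and control 24 h replicate 2) were on a slide with a later scan date. Each comparison is therefore also given with the slide as a block and without the later slide where that changes it. Another split, described in detail further on, runs between replicates 1 to 3 and replicates 4 and 5. Slides shared by groups mostly held replicates 1 to 3 of one group and 4 and 5 of the other. Values under a fixed block for the slide carry that split as well. Under that block the KO 6 h group was tied to the others by 1 array (replicate 1), and the KO 24 h group by 1 (replicate 5).

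In unstimulated cells, 8 of the 31 genes were lower in KO than in control cells and 0 were higher (11 and 1 at an unadjusted p under 0.05). Over all 11263 genes 7.14% were lower and 6.98% higher, or 14.1% in either direction, at the same threshold (adjusted p under 0.05 by limma, Benjamini-Hochberg over all genes). The 5 KO arrays lay wholly on one side of the 5 control arrays for 7 of the 31, against 18.2% of all genes. The 8 came from hexokinase, upper and lower glycolysis and pyruvate entry, and the median log2 difference of the 31 was -0.26 against -0.04 for all genes. With each array centred on its median in place of a loess fit, Hk1, Eno1, Pdk1 and Pdk3 lost the call and Tpi1 (-1.25) and Slc16a3 (-1.24) gained it, and of all called genes 37.1% were higher in place of 49.4%. Values for a group are given in order of replicate number, 1 to 5.

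Of the enzymes of upper glycolysis, Pfkp and Aldoc were lower. Pfkp, the platelet-type subunit of phosphofructokinase, had log2 ratios of 0.47, 0.16, 0.21, 0.84 and 0.38 in control and -0.45, -0.54, -0.63, -0.60 and -0.35 in KO cells. The groups did not overlap (log2 difference -0.93 ± 0.15 SE, 1.90-fold lower, adjusted p = 0.000107). A second, dimmer Pfkp probe showed no such difference (0.01), so the result rests on the brighter one. Aldoc, the aldolase C isoform, had 0.45, 0.12, 0.33, 0.84 and 1.29 in control and -1.99, -0.66, -1.15, -0.45 and -0.98 in KO cells. The groups were again apart, with the KO arrays spread over a wider range (log2 difference -1.65 ± 0.37 SE, 3.15-fold lower, adjusted p = 0.00298). Aldoa, the main aldolase of most cells, had 0.31 ± 0.56 (adjusted p = 0.765).

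In lower glycolysis Pgk1 and Eno1 were lower. Pgk1, phosphoglycerate kinase and the first ATP-yielding step, had -0.66, -0.98, -0.71, -0.61 and -1.06 in control and -2.15, -1.45, -1.67, -1.46 and -1.74 in KO cells. Every KO array lay below every control array (log2 difference -0.89 ± 0.16 SE, 1.86-fold lower, adjusted p = 0.000303), and its other probe gave -0.97. Eno1, the ubiquitous enolase, had -1.07, -1.02, -0.88, -1.07 and -1.12 against -1.98, -1.31, -1.46, -1.51 and -1.84. These groups did not overlap either, but the call was marginal (log2 difference -0.59 ± 0.19 SE, 1.51-fold lower, adjusted p = 0.0364) and was lost without control 0 h replicate 1, 2, 3, 4 or 5 or KO 0 h replicate 1 or 5 (adjusted p from 0.0126 to 0.121 over the 30 omissions). Pkm (pyruvate kinase M) had -0.31 ± 0.25 and Pgam1 -0.03 ± 0.33, both short of the threshold.

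Hk1, the housekeeping hexokinase, had -0.09, -0.01, 0.05, -0.37 and -0.26 in control and -1.19, -0.79, -0.64, -0.72 and -0.94 in KO cells, apart on all arrays (log2 difference -0.72 ± 0.19 SE, 1.65-fold lower, adjusted p = 0.00872), and its 2 other probes gave -0.66 and -0.40. The inducible Hk2 (0.15 ± 0.59) and the myeloid Hk3 (0.20 ± 0.38) were not called.

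Of the pyruvate entry genes, 3 of 5 tested were lower. Pdha1, the E1 alpha subunit of pyruvate dehydrogenase, had 0.06, -0.11, -0.12, 0.26 and 0.09 in control and -0.36, -0.66, -0.58, -0.60 and -0.53 in KO cells (log2 difference -0.58 ± 0.10 SE, 1.49-fold lower, adjusted p = 0.000278). Its second probe gave -0.08. Of the kinases that inhibit that enzyme, Pdk3 had 0.65, 0.41, 0.34, 0.85 and 0.59 against 0.02, 0.18, 0.05, 0.06 and -0.13 (log2 difference -0.53 ± 0.14 SE, 1.45-fold lower, adjusted p = 0.00897), also without overlap, and its other probe gave -0.63. Pdk1 had -0.87, -1.16, -0.74, -0.86 and -0.78 against -2.05, -1.15, -1.35, -1.10 and -1.56. The Pdk1 groups overlapped and KO replicate 1 was far below the rest (log2 difference -0.56 ± 0.16 SE, 1.47-fold lower, adjusted p = 0.0212). The Pdk1 call was lost without KO 0 h replicate 1 (adjusted p from 0.0118 to 0.0999 over the 30 omissions).

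The other 23 genes did not pass. The largest of their differences were those of the lactate exporter Slc16a3 (MCT4; log2 difference -0.97 ± 0.38 SE, adjusted p = 0.0906) and of triose phosphate isomerase Tpi1 (log2 difference -0.84 ± 0.35 SE, adjusted p = 0.109). On both genes, KO replicates 1 and 5 were set apart from KO replicates 2 to 4: Slc16a3 had -0.27, 1.53, 1.25, 1.42 and 0.41 and Tpi1 -3.01, -1.73, -2.07, -1.95 and -2.69. Glucose uptake (Slc2a1 0.67 ± 0.56, Slc2a3 -0.32 ± 0.14), lactate dehydrogenase (Ldha -0.05 ± 0.33, Ldhb -0.30 ± 0.21) and the pentose phosphate genes (G6pdx -0.06 ± 0.36, Tkt -0.10 ± 0.35, Taldo1 0.38 ± 0.20) showed no difference past the threshold. Under a fixed block for the slide, Pdk1, Aldoc and Pdha1 kept the call, the other 5 lost it, and Hk1, Eno1 and Pdk3 changed sign (0.35, 0.00141 and 0.22). That fit called 7 genes higher and 5 lower, against 24.4% and 26.2% of all genes. The 7 were Pfkfb3 (6.40), Hk2 (4.05), Aldoa (4.00), Hk3 (2.74), G6pdx (2.20), Taldo1 (1.31) and Pdk2 (0.89), and Slc2a3 (-0.80) and Pdhb (-1.49) were lower in addition. With the slide as a random block Eno1 alone was lost. Of the markers, 6 of 10 of dendritic cells and 1 of 9 of neutrophils were called lower. Of 10 macrophage markers 2 were called higher, and by sign alone 6 were higher and 4 lower. The shares of all genes were 7.14% lower and 6.98% higher. The part of these markers in the differences was not tested.

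**Figure D1:**
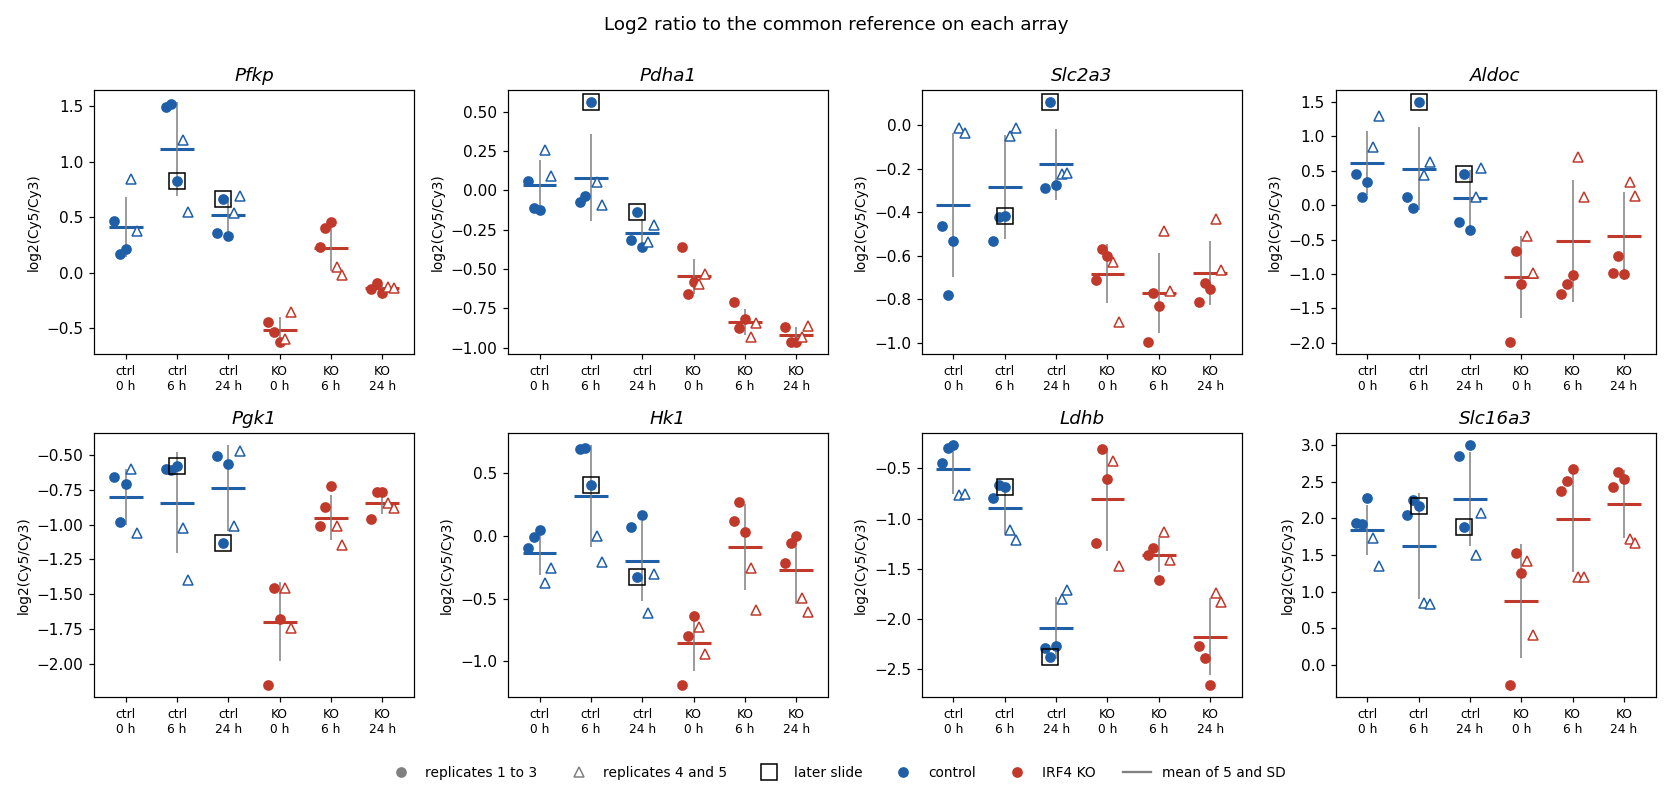
Log2 ratio to the common reference (vertical axes) on each of the 30 arrays for 8 genes, by genotype and hours of LPS (horizontal axes); lines are means of 5 arrays with SD, filled circles replicates 1 to 3, open triangles replicates 4 and 5, and squares the 2 arrays of the later slide. The KO arrays of Pfkp and Pdha1 lie below the control arrays of the same time throughout, Pgk1 and Hk1 are set apart only at 0 h, and Ldhb is lowest at 24 h in both genotypes.

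After 6 h of LPS, 3 of the 31 genes were lower in KO cells and 0 were higher (6 and 2 at an unadjusted p under 0.05), against 5.89% and 6.23% of all genes (12.1% in either direction). The 6 h count was 5 without KO 6 h replicate 4. At 24 h 3 were lower and 1 was higher, against 8.45% and 6.96% of all genes (15.4% in either direction). The groups did not overlap for 2 of the 31 at 6 h, against 9.24% of all genes, and for 5 at 24 h (Slc2a3, Pfkp and Pdha1, and the uncalled Eno2 and Taldo1), against 12.2%. Pfkp and Pdha1 were lower at both times, as in unstimulated cells, and Slc2a3 was lower at both LPS times. The medians of the 31 log2 differences were -0.16 at 6 h and 0.08 at 24 h, against -0.01 and -0.01 for all genes. With median centring Slc2a3 was not called at either time nor Slc16a1 at 24 h, and 40.8% of all called genes were higher at 6 h in place of 51.4%.

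Pfkp had 1.49, 1.52, 0.83, 1.20 and 0.55 in control and 0.23, 0.40, 0.46, 0.05 and -0.03 in KO cells at 6 h, and 0.36, 0.67, 0.33, 0.53 and 0.69 and -0.15, -0.10, -0.19, -0.13 and -0.14 at 24 h. The groups did not overlap at either time (6 h, log2 difference -0.89 ± 0.15 SE, 1.86-fold lower, adjusted p = 0.000225; 24 h, log2 difference -0.66 ± 0.15 SE, 1.58-fold lower, adjusted p = 0.00345). The second probe gave -0.45 and -0.03, and the mean over both probes was not called at 24 h (-0.34).

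Pdha1 showed the lowest adjusted p of the 31 genes at both LPS times. It had -0.08, -0.04, 0.56, 0.05 and -0.09 in control and -0.71, -0.87, -0.82, -0.93 and -0.85 in KO cells at 6 h (log2 difference -0.92 ± 0.10 SE, 1.89-fold lower, adjusted p = 9.63e-07). At 24 h it had -0.32, -0.14, -0.36, -0.33 and -0.22 and -0.87, -0.96, -0.96, -0.93 and -0.86 (log2 difference -0.65 ± 0.10 SE, 1.56-fold lower, adjusted p = 7.83e-05). No KO array reached a control array at either time, although the second Pdha1 probe gave only -0.37 and -0.12. At 24 h the difference was -0.14 with the slide as a fixed block and was no longer called.

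Slc2a3 encodes GLUT3, a high-affinity glucose transporter. Its ratios were -0.53, -0.42, -0.42, -0.05 and -0.01 in control and -0.999, -0.77, -0.83, -0.49 and -0.76 in KO cells at 6 h, where the groups overlapped (log2 difference -0.49 ± 0.14 SE, 1.40-fold lower, adjusted p = 0.0193). That call was lost without control 6 h replicate 4 or 5 or KO 6 h replicate 1 (adjusted p from 0.00947 to 0.0651 over the 30 omissions). At 24 h they were -0.29, 0.11, -0.28, -0.22 and -0.22 and -0.81, -0.73, -0.75, -0.43 and -0.67, without overlap (log2 difference -0.50 ± 0.14 SE, 1.41-fold lower, adjusted p = 0.0127), but the difference was 0.31 with the slide as a fixed block. The other transporter, Slc2a1 (GLUT1), was higher in KO cells by 1.23 ± 0.56 at 6 h and 1.02 ± 0.56 at 24 h, short of the threshold (adjusted p = 0.16 and 0.247). Its spread was wide: at 6 h it had 0.10, 0.36, -0.62, -1.90 and -2.14 in control and 1.25, 1.26, 1.49, -1.35 and -0.70 in KO cells, low in replicates 4 and 5 of both.

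Slc16a1, the lactate and pyruvate transporter MCT1, was the gene that was higher in KO cells at 24 h. It had -3.19, -2.80, -3.29, -3.25 and -3.23 in control and -1.81, -1.96, -2.05, -2.88 and -2.43 in KO cells (log2 difference 0.92 ± 0.30 SE, 1.90-fold higher, adjusted p = 0.033). The groups overlapped at the low KO replicate 4. The call was lost without control 24 h replicate 1, 3, 4 or 5 or KO 24 h replicate 1, 2 or 3 (adjusted p from 0.0147 to 0.0983 over the 30 omissions), and the slide as a fixed block brought it to 0.06. Its other 2 probes gave 0.25 and 1.10.

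Of the 8 genes that had been lower without stimulation, the other 6 were not called in LPS. Pgk1 had a difference of -0.11 ± 0.16 at 6 h and -0.10 ± 0.16 at 24 h, Hk1 -0.40 ± 0.19 and -0.07 ± 0.19, Pdk3 -0.27 ± 0.14 and -0.12 ± 0.14, Eno1 -0.30 ± 0.19 and 0.30 ± 0.19, and Pdk1 0.20 ± 0.16 and 0.16 ± 0.16. Whether these differences changed with LPS is tested below. Aldoc had a difference of -1.06 ± 0.37 at 6 h (adjusted p = 0.0643) with KO arrays at -1.29, -1.15, -1.02, 0.70 and 0.12, low in replicates 1 to 3 and not in 4 and 5. The pentose phosphate genes at 24 h ranged from Taldo1, transaldolase (log2 difference -0.56 ± 0.20 SE, adjusted p = 0.0507), to G6pdx, the entry enzyme (0.18 ± 0.36). At 24 h a fixed block for the slide rests on 1 KO 24 h array (replicate 5), so its calls are not counted here. Dendritic cell markers were lower as given above, and neutrophil markers were lower in KO cells for 3 of 9 at 6 h and 4 of 9 at 24 h. Macrophage markers were higher for 1 of 10 at 24 h. The part of these markers in the differences was not tested.

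**Figure D2:**
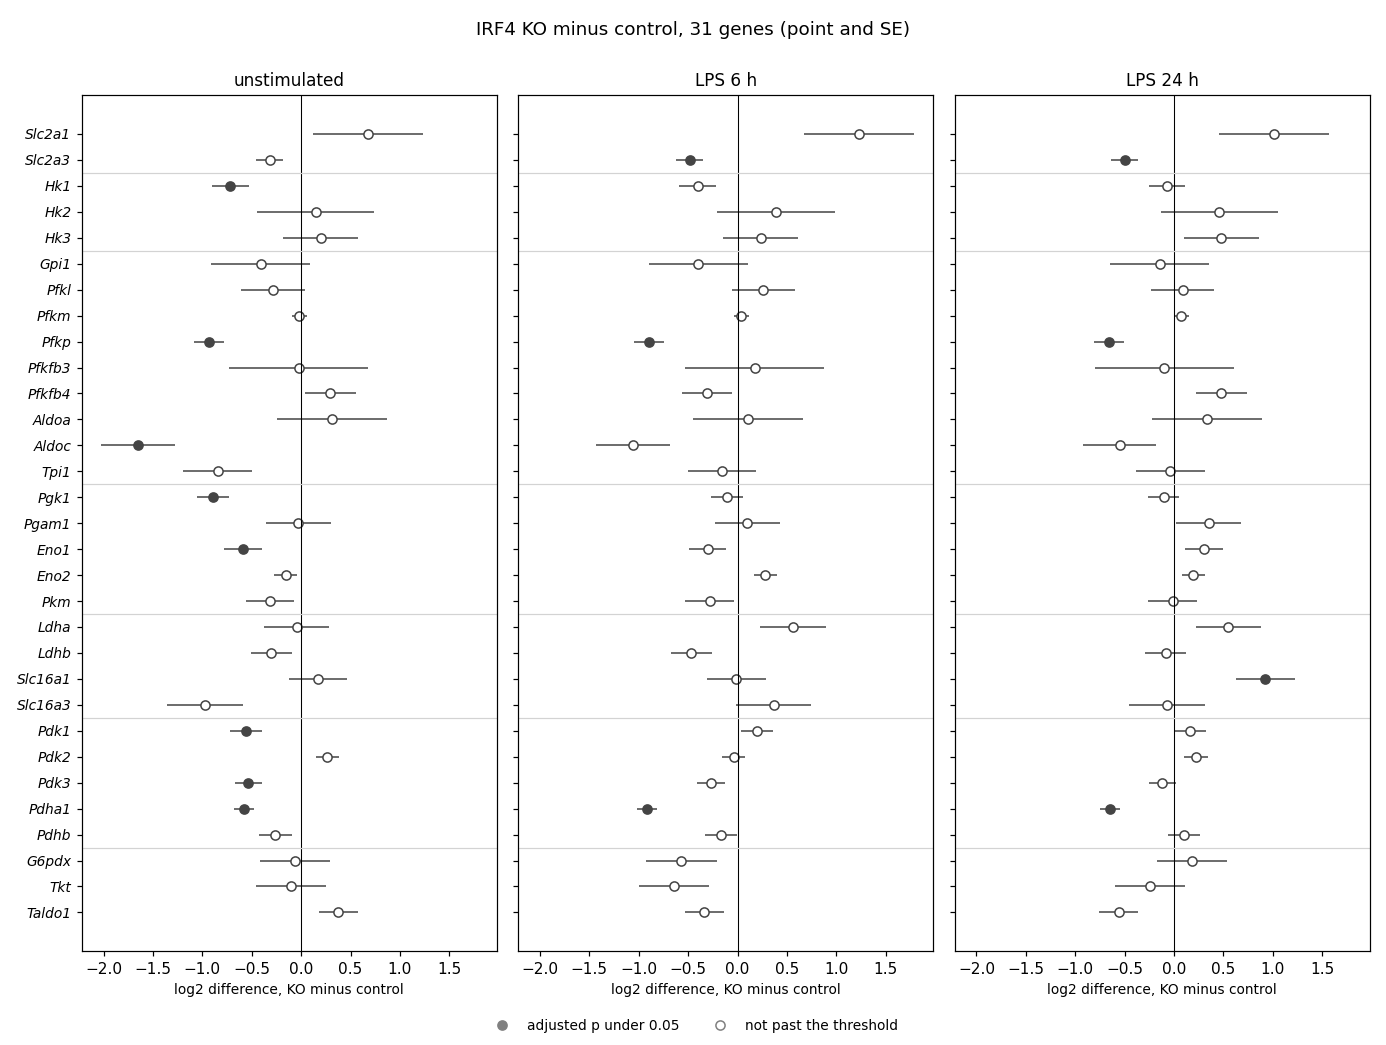
Log2 difference, KO minus control (horizontal axes), of the 31 genes in unstimulated cells and after 6 and 24 h of LPS; points with SE bars from the limma fit, filled where the adjusted p was under 0.05, with grey lines between roles from glucose uptake at the top to the pentose phosphate genes at the bottom. Filled points lie below 0, save Slc16a1 at 24 h (0.92).

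In control cells, few of these genes were called at 6 h of LPS, and those called at 24 h were all lower. A gene that was not called is not shown to be unchanged. At 6 h 1 of 31 was higher and 1 lower than in unstimulated cells, against 7.14% and 4.49% of all genes (11.6% in either direction). That count of 2 was 1 without control 0 h replicate 1, 2 or 3 or control 6 h replicate 1, 2 or 4 and 5 without control 6 h replicate 3. At 24 h 0 were higher and 5 lower (0 and 6 at an unadjusted p under 0.05), against 7.24% and 5.06% (12.3% in either direction). The 24 h count of 5 was 3 without control 0 h replicate 1, 4 or 5 or control 24 h replicate 1, 3 or 4. Between 6 and 24 h 0 were higher and 3 lower (1 and 6 unadjusted), against 3.32% and 2.18% (5.5% in either direction), and that count of 3 was 1 without control 6 h replicate 2 and 5 without control 6 h replicate 5. The groups did not overlap for 0 of the 31 at 6 h (4.5% of all genes), for 4 at 24 h (Ldhb, Slc16a1, Pdha1 and the uncalled Eno1; 9.96%) and for 2 between 6 and 24 h (Ldhb and Pdha1; 4.04%). Of all genes called at 6 h 61.4% were higher, a share that was 74.9% with median centring, which called 0 of the 31, 48.5% with the scanner software's log ratios and 46.3% with Cy5 signals alone. A fixed block for the slide called 5 genes higher and 1 lower at 6 h (18.1% and 16.3% of all genes) and 6 higher and 4 lower at 24 h (21.6% and 20.3%). In that fit 6 h replicates 1 and 2 stood against unstimulated replicates 4 and 5, and 24 h replicates 1 and 3 against 6 h replicate 5. Its higher genes therefore cannot be told apart from the split between the sets of replicates. Neutrophil markers were higher in LPS, 2 of 9 at 6 h and 3 of 9 at 24 h. Macrophage markers were higher for 2 and lower for 1 of 10 at 6 h and 2 each at 24 h. The part of these markers in the changes was not tested. At 24 h the share was 58.8%, and it was 48.3% with the scanner software's own log ratios and 47.1% with Cy5 alone.

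Pfkp rose at 6 h, from 0.47, 0.16, 0.21, 0.84 and 0.38 to 1.49, 1.52, 0.83, 1.20 and 0.55 (log2 difference 0.70 ± 0.15 SE, 1.63-fold higher, adjusted p = 0.0032), with the 3 highest arrays in replicates 1, 2 and 4. The groups overlapped, and the rise was 0.999 over replicates 1 to 3 and 0.26 over replicates 4 and 5. The dimmer Pfkp probe rose by 0.22. The values that follow are those of the brighter probe. From 6 to 24 h it fell again (log2 difference -0.60 ± 0.15 SE, 1.52-fold lower, adjusted p = 0.0184), a call lost without control 6 h replicate 1 or 2 (adjusted p from 0.00229 to 0.0734 over the 30 omissions). The slide that held both unstimulated and 6 h control arrays set 6 h replicates 1 and 2 against unstimulated replicates 4 and 5, with a difference of 0.89 for Pfkp.

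Pfkfb4 makes and degrades fructose 2,6-bisphosphate. It fell from 2.95, 3.35, 3.47, 2.14 and 2.08 to 1.93, 2.04, 2.78, 1.49 and 1.63 at 6 h and 2.05, 1.76, 2.12, 1.37 and 1.51 at 24 h. Both falls were called (6 h, log2 difference -0.83 ± 0.26 SE, 1.77-fold lower, adjusted p = 0.0351; 24 h, log2 difference -1.03 ± 0.26 SE, 2.05-fold lower, adjusted p = 0.00877), but the groups overlapped, since unstimulated replicates 4 and 5 were lower than 1 to 3. The 6 h call was lost without control 0 h replicate 1, 2 or 3 or control 6 h replicate 1, 2, 4 or 5 (adjusted p from 0.00344 to 0.123 over the 30 omissions). The falls were -0.12 and -0.30 with the slide as a fixed block and neither was then called. Pfkfb3, the isoform known to be LPS-inducible, had 1.07, 1.39, 1.70, -0.31 and -0.42 without LPS and 3.40, 3.67, 0.14, 0.19 and 0.23 at 6 h, with 2 arrays far above the other 3 (log2 difference 0.84 ± 0.70 SE, adjusted p = 0.524).

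On the lactate side, 2 genes fell late. Ldhb, the lactate dehydrogenase subunit that favours pyruvate formation, had -0.45, -0.30, -0.27, -0.77 and -0.76 without LPS, -0.80, -0.66, -0.69, -1.11 and -1.22 at 6 h and -2.29, -2.38, -2.27, -1.80 and -1.71 at 24 h. All 24 h arrays lay below all others (log2 difference -1.58 ± 0.21 SE, 3.00-fold lower, adjusted p = 2.59e-05; from 6 to 24 h, log2 difference -1.20 ± 0.21 SE, 2.29-fold lower, adjusted p = 0.000709). Slc16a1 had -1.66, -1.66, -1.66, -1.60 and -1.62 without LPS and -1.83, -1.72, -1.42, -3.28 and -3.10 at 6 h, where replicates 4 and 5 had fallen and 1 to 3 had not. At 24 h it had -3.19, -2.80, -3.29, -3.25 and -3.23, below every unstimulated array (log2 difference -1.51 ± 0.30 SE, 2.85-fold lower, adjusted p = 0.0015). Ldha, the subunit that favours lactate, had 0.10 ± 0.33 at 6 h and 0.32 ± 0.33 at 24 h.

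Of the pyruvate entry genes, Pdk1 and Pdha1 were lower at 24 h. Pdk1 had -1.40, -1.63, -1.59, -1.40 and -1.08 at 24 h (log2 difference -0.54 ± 0.16 SE, 1.45-fold lower, adjusted p = 0.0311), a call lost without control 0 h replicate 1, 3, 4 or 5 or control 24 h replicate 1, 2, 3 or 4 (adjusted p from 0.0157 to 0.0758 over the 30 omissions). The fall of Pdha1 was small (log2 difference -0.31 ± 0.10 SE, 1.24-fold lower, adjusted p = 0.0496; from 6 to 24 h, log2 difference -0.35 ± 0.10 SE, 1.28-fold lower, adjusted p = 0.0392). At 24 h against 0 h it stayed called only when the array left out was control 0 h replicate 2 or 3, control 6 h replicate 3 or 5, control 24 h replicate 2 or KO 0 h replicate 1 (adjusted p from 0.00748 to 0.137 over the 30 omissions). From 6 to 24 h it was lost without control 6 h replicate 2, 3 or 4 or control 24 h replicate 1, 3, 4 or 5 (adjusted p from 0.0308 to 0.0825 over the 30 omissions).

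Same-numbered arrays of the unstimulated and 24 h control groups deviated together in all 5 pairs, but only 1 of the 5 arrays at 24 h correlated best with its own number. Whether same-numbered samples belong together is thus not shown here. A block on replicate number gave 8 lower genes and 0 higher at 24 h in place of 5 and 0, while the share of all genes rose to 10.6% lower and 13.9% higher. The 3 added were Eno1 (-0.39), Pdhb (-0.39), the beta subunit of pyruvate dehydrogenase E1, and Tkt (-0.70), transketolase. A second Tkt probe gave only -0.14. The hexokinases (Hk1 -0.06 ± 0.19, Hk2 0.13 ± 0.59, Hk3 -0.13 ± 0.38), glucose uptake (Slc2a1 0.28 ± 0.56, Slc2a3 0.19 ± 0.14) and the other pentose phosphate genes (G6pdx 0.26 ± 0.36, Taldo1 0.12 ± 0.20) did not pass at 24 h with or without the block. Without the later slide 5 genes were called at 6 h in place of 2: Slc16a1 (-0.84), Pdk1 (-0.54) and Eno2 (0.26) in addition.

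Against unstimulated cells, more of the genes were called in KO than in control cells, with calls in both directions. The same held for all genes, and the difference of the responses is tested further on. At 6 h 6 of 31 were higher and 5 lower than in unstimulated KO cells, against 14.2% and 12.4% of all genes (26.6% in either direction). At 24 h 5 were higher and 4 lower, against 10.3% and 7.85% (18.1% in either direction). Between 6 and 24 h 1 was lower and 0 higher (2 and 2 at an unadjusted p under 0.05), against 4.21% and 3.54% (7.75% in either direction). The 6 h count of 11 was 7 without KO 6 h replicate 2, the 24 h count of 9 was 5 without KO 0 h replicate 1, and the count of 1 between 6 and 24 h was 2 without control 6 h replicate 3 or KO 24 h replicate 4 or 5. The groups did not overlap for 9 of the 31 at 6 h (24.9% of all genes), for 10 at 24 h (21.2%), among them the uncalled Pfkp and Ldha, and for 3 between 6 and 24 h (Ldhb and the uncalled Pfkp and Pfkfb4; 11.7%). Pgk1, Hk1, Slc16a3, Pdk3 and Eno2 rose at both times and Pfkfb4, Ldhb, Taldo1 and Pdha1 fell at both. These comparisons share the unstimulated KO arrays with the comparison of the genotypes at 0 h, in which Pgk1, Hk1 and Pdk3 were low. The median over all genes at 6 h was 0.02, and it was -0.10 with median centring and -0.09 with Cy5 alone. Of the called genes 53.5% were higher at 6 h, 36.9% with Cy5 alone and 42.1% with the scanner software's log ratios. Of the 11 genes called at 6 h, median centring kept Pgk1, Eno2, Slc16a3, Pfkfb4 and Taldo1, and of the 9 at 24 h it kept Pgk1, Slc16a3, Ldhb and Taldo1. With the slide as a fixed block, the 6 h change rests on 1 KO 6 h array (replicate 1). The 24 h change rests on 1 KO 24 h array (replicate 5), so calls under that block are not counted for KO cells in LPS. Dendritic cell markers rose in KO cells with LPS, 4 of 10 at each time. Neutrophil markers rose for 1 of 9 at 6 h and 3 of 9 at 24 h, and of 10 macrophage markers 2 rose and 1 fell at 6 h and 3 rose and 3 fell at 24 h (median -1.18). The part of these markers in the changes was not tested. At 24 h the share of higher genes was 56.7%, 67.9% with median centring and 43.9% with Cy5 alone.

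Slc16a3 rose most. It had -0.27, 1.53, 1.25, 1.42 and 0.41 without LPS, 2.38, 2.51, 2.68, 1.20 and 1.20 at 6 h and 2.42, 2.63, 2.53, 1.72 and 1.67 at 24 h (6 h, log2 difference 1.13 ± 0.38 SE, 2.18-fold higher, adjusted p = 0.0295; 24 h, log2 difference 1.32 ± 0.38 SE, 2.51-fold higher, adjusted p = 0.0159). At 6 h the groups overlapped, with KO 6 h replicates 4 and 5 among the unstimulated arrays, and the rise was 1.69 over replicates 1 to 3 and 0.28 over replicates 4 and 5. The 6 h call was lost without KO 0 h replicate 1 or 5 or KO 6 h replicate 1, 2 or 3 (adjusted p from 0.0146 to 0.115 over the 30 omissions). The 24 h call was lost without KO 0 h replicate 1 (adjusted p from 0.012 to 0.0679 over the 30 omissions). Its 24 h difference was -0.89 with the slide as a fixed block.

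Pgk1 had -1.01, -0.87, -0.72, -1.01 and -1.15 at 6 h and -0.96, -0.76, -0.77, -0.84 and -0.88 at 24 h, both above every unstimulated KO array (log2 difference 0.74 ± 0.16 SE, 1.67-fold higher, adjusted p = 0.000937; log2 difference 0.85 ± 0.16 SE, 1.81-fold higher, adjusted p = 0.000397). Its other probe gave 0.81 and 0.94. Hk1 had 0.12, 0.27, 0.03, -0.26 and -0.59 and -0.21, -0.05, 0.00, -0.49 and -0.61, also without overlap (log2 difference 0.77 ± 0.19 SE, 1.71-fold higher, adjusted p = 0.00273; log2 difference 0.58 ± 0.19 SE, 1.50-fold higher, adjusted p = 0.0292). The 24 h call of Hk1 was lost without KO 0 h replicate 1 or 5 or KO 24 h replicate 1, 2 or 3 (adjusted p from 0.0196 to 0.092 over the 30 omissions), and with the slide as a fixed block it was -0.93. Pdk3 had 0.61, 0.80, 0.70, 0.77 and 0.25 and 0.52, 0.66, 0.66, 0.27 and 0.16 (log2 difference 0.59 ± 0.14 SE, 1.50-fold higher, adjusted p = 0.00218; log2 difference 0.42 ± 0.14 SE, 1.34-fold higher, adjusted p = 0.0346). At 24 h it was lost without KO 0 h replicate 1, 3, 4 or 5 or KO 24 h replicate 1, 2 or 3 (adjusted p from 0.0185 to 0.09 over the 30 omissions), and was -0.52 with the slide as a fixed block. Eno2, the neuronal enolase isoform, rose slightly, from -2.86 ± 0.07 (mean ± SD, n = 5) to -2.31 ± 0.12 and -2.48 ± 0.04 (log2 difference 0.55 ± 0.12 SE, 1.47-fold higher, adjusted p = 0.000731; log2 difference 0.38 ± 0.12 SE, 1.30-fold higher, adjusted p = 0.0217), at 24 h not without KO 0 h replicate 1 (adjusted p from 0.00169 to 0.0593 over the 30 omissions). Pfkp rose at 6 h (log2 difference 0.74 ± 0.15 SE, 1.67-fold higher, adjusted p = 0.00061) on its brighter probe and had -0.23 on the dimmer one, and the mean of both was not called (0.25). At 24 h Pfkp was 0.37 ± 0.15 higher (adjusted p = 0.0869).

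Of the genes that fell, Pfkfb4 had the largest change at 6 h. It had 2.42, 3.45, 3.36, 3.40 and 2.84 without LPS, 1.84, 1.79, 1.50, 1.35 and 1.84 at 6 h and 2.37, 2.34, 2.09, 2.18 and 2.23 at 24 h, without overlap with the unstimulated arrays (log2 difference -1.43 ± 0.26 SE, 2.70-fold lower, adjusted p = 0.000143; log2 difference -0.85 ± 0.26 SE, 1.80-fold lower, adjusted p = 0.0209). None of the 18 alternative settings and none of the 30 omissions of an array ended its 6 h call. The 24 h call was lost without KO 0 h replicate 2, 3 or 4 (adjusted p from 0.00797 to 0.059 over the 30 omissions). Taldo1, of the pentose phosphate route, had 1.73, 1.61, 1.60, 1.42 and 1.48 without LPS, 0.93, 0.64, 0.57, -0.09 and 0.52 at 6 h and 1.001, 0.90, 0.80, 0.37 and 0.69 at 24 h, lower on every LPS array (log2 difference -1.05 ± 0.20 SE, 2.08-fold lower, adjusted p = 0.000207; log2 difference -0.82 ± 0.20 SE, 1.76-fold lower, adjusted p = 0.00388). Ldhb had -1.36, -1.29, -1.61, -1.13 and -1.41 at 6 h and -2.26, -2.39, -2.66, -1.74 and -1.83 at 24 h (log2 difference -0.55 ± 0.21 SE, 1.47-fold lower, adjusted p = 0.0468; log2 difference -1.37 ± 0.21 SE, 2.58-fold lower, adjusted p = 3.56e-05; from 6 to 24 h, log2 difference -0.81 ± 0.21 SE, 1.76-fold lower, adjusted p = 0.0136). The 24 h arrays were below all others, whereas at 6 h the groups overlapped. That 6 h call was lost without control 0 h replicate 1 or 2, control 6 h replicate 1, control 24 h replicate 1, KO 0 h replicate 2, 3 or 4, KO 6 h replicate 1, 2, 3 or 5 or KO 24 h replicate 1 or 2 (adjusted p from 0.00894 to 0.147 over the 30 omissions).

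Slc16a1 fell at 6 h (log2 difference -0.81 ± 0.30 SE, 1.76-fold lower, adjusted p = 0.0422), a call lost without KO 0 h replicate 1 or 5 or KO 6 h replicate 2, 4 or 5 (adjusted p from 0.025 to 0.156 over the 30 omissions), and its difference at 24 h did not pass (-0.76 ± 0.30). Pdha1 fell by 0.29 at 6 h and 0.37 at 24 h on the log2 scale (log2 difference -0.29 ± 0.10 SE, adjusted p = 0.0366; log2 difference -0.37 ± 0.10 SE, adjusted p = 0.0121). The 6 h call was lost without KO 0 h replicate 1, 3 or 5 or KO 6 h replicate 2, 3, 4 or 5 (adjusted p from 0.00585 to 0.108 over the 30 omissions), and the 24 h difference was 0.10 with the slide as a fixed block. On the slide that held both unstimulated and 6 h KO arrays, a single 6 h array (replicate 1) stood against unstimulated replicates 3, 4 and 5, so no value within a slide is given for this comparison. The fixed block for the slide rests on that same array here.

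The unstimulated and 6 h KO arrays also deviated together by number in all 5 pairs. The block on that number called 8 genes higher and 8 lower at 6 h in place of 6 and 5, against 21.6% and 20.9% of all genes with that block: Hk2 (0.93) and Ldha (0.71) were higher and G6pdx (-0.54), Tkt (-0.79) and Pdk2 (-0.31) lower in addition. From 6 to 24 h, where the same held, the block added a rise of G6pdx (1.05) to the fall of Ldhb (8.83% of all genes higher and 9.13% lower). Without the later slide, whose 2 arrays are control arrays, 12 genes were called in KO cells at 24 h in place of 9: Ldha (0.91), Eno1 (0.50) and Slc16a1 (-0.76) in addition.

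**Figure D3:**
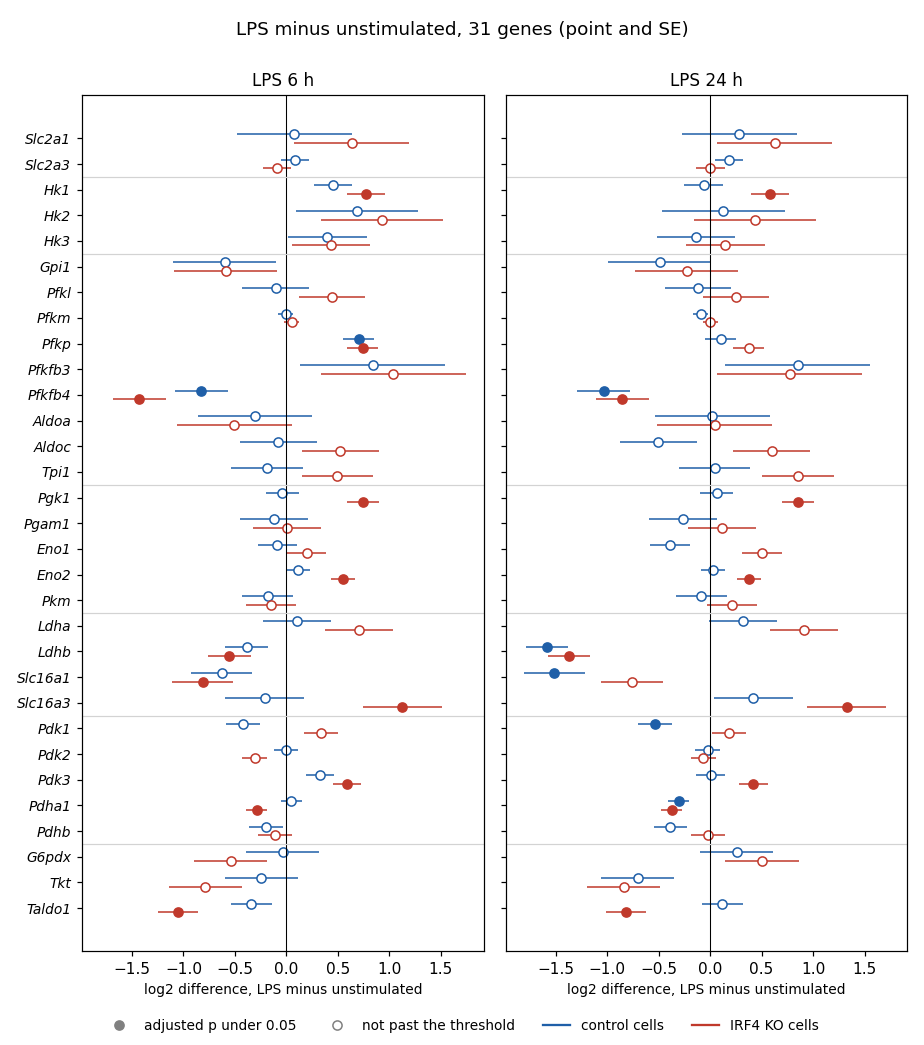
Log2 difference, LPS minus unstimulated (horizontal axes), of the 31 genes at 6 and 24 h in control (blue) and KO cells (red); points with SE bars from the limma fit, filled where the adjusted p was under 0.05. Pgk1, Slc16a3, Hk1 and Taldo1 are filled in KO cells only, and the difference of the responses is tested separately.

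The difference of the LPS responses, KO minus control, was called for 0 of the 31 genes at 6 h and 0 at 24 h by limma. Over all genes 0.435% were called at 6 h (0.293% higher and 0.142% lower) and 0.888% at 24 h (0.426% and 0.462%). Of the called genes 67.3% were higher at 6 h and 48% at 24 h, which became 87.8% and 75% with median centring and 77.8% and 60% with the scanner software's log ratios. The 24 h count of members was 1 without control 6 h replicate 3. At an unadjusted p under 0.05 there were 4 higher and 2 lower at 6 h and 7 higher and 1 lower at 24 h. The median of the 31 was 0.09 at 6 h and 0.31 at 24 h, against 0.01 and 0.01 for all genes. The genes nearest the threshold were Pgk1 (6 h, log2 difference 0.78 ± 0.23 SE, adjusted p = 0.168; 24 h, log2 difference 0.79 ± 0.23 SE, adjusted p = 0.0967), Eno1 (24 h, log2 difference 0.89 ± 0.27 SE, adjusted p = 0.119), Taldo1 (24 h, log2 difference -0.94 ± 0.28 SE, adjusted p = 0.11) and Pdk1 (6 h, log2 difference 0.76 ± 0.23 SE, adjusted p = 0.213; 24 h, log2 difference 0.72 ± 0.23 SE, adjusted p = 0.155). A response past the threshold in KO cells and short of it in control cells, as for Pgk1, Hk1, Slc16a3, Pdk3, Eno2 and Taldo1, was thus not shown to differ between the genotypes in this fit. Other settings called single genes at 24 h: Eno1 without the later slide (0.94) and with the 4 compared groups alone (0.89), Pgk1 with the scanner software's log ratios (0.97) and Taldo1 with Cy5 alone (-0.94). A block on the replicate number called Pgk1 (0.79), Eno1 (0.89) and Taldo1 (-0.94) together at 24 h. With the slide as a fixed block the 24 h difference rests on 1 KO 24 h array (replicate 5). It was then -13.36 for Pfkfb3, -8.26 for Hk2 and -7.72 for Aldoa. These 3 genes had the largest mean shift between the sets of replicates described next.

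Many of the genes that passed no test had the largest spread within groups, and this spread followed the replicate number. In all 6 groups the mean of replicates 4 and 5 was below that of replicates 1 to 3 for 15 of the 31 genes (48.4%, against 25.7% of all genes), and above it for 3, Aldoc, Eno2 and Pdhb (9.68%, against 29.1%). The 15 included Slc2a1, Hk2, Hk3, Gpi1, Pfkl, Pfkfb3, Aldoa, Tpi1, Pgam1, Eno1, Pkm, G6pdx, Tkt and Taldo1, so most steps from glucose uptake to pyruvate, and Pdk2. The mean shift over the groups was largest for Pfkfb3 (-1.66), Aldoa and Hk2 (-1.52 each), Gpi1 (-1.29) and Slc2a1 (-1.18). No label states what replicates 4 and 5 share. The sign of the shift was the same in all 6 groups for these genes, but its size was not. In unstimulated KO cells it was small for Slc2a1 and Hk2, as their values below show. The shift enters the comparisons as spread, and where its size differs between 2 groups the change differs between the sets. A block on replicate number takes it as equal in all groups.

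For some of these genes the values in LPS are given by set, without a test of the difference between the sets. Not all were larger in replicates 1 to 3: in KO cells Gpi1 at 6 h changed by -0.15 there and by -1.26 in replicates 4 and 5, and Tkt at 24 h by -0.55 and -1.27. A second Tkt probe changed by -0.14 in KO cells at 24 h over all replicates. Hk2 in KO cells had 0.04, 0.37, 0.09, 0.37 and -0.51 without LPS and 1.76, 1.92, 2.12, -0.54 and -0.26 at 6 h. It was thus above every unstimulated array in replicates 1 to 3 and among them in 4 and 5. Fitted on replicates 1 to 3 alone, a setting chosen after seeing the data, Hk2 changed by 1.77, and on replicates 4 and 5 alone by -0.33. Slc2a1 in KO cells had -0.44, 0.11, -0.30, -0.05 and -0.53 and 1.25, 1.26, 1.49, -1.35 and -0.70, with changes of 1.55 and -0.74. Pfkfb3 in control cells changed by 1.02 and 0.57, with replicate 3 of the later slide at 0.14 beside 3.40 and 3.67 in replicates 1 and 2. Ldha in KO cells changed by 1.09 at 6 h and 1.34 at 24 h in replicates 1 to 3, and by 0.12 and 0.27 in 4 and 5.

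In replicates 1 to 3, 11 genes were higher and 3 lower in KO cells at 6 h of LPS, against 15.4% and 14.4% of all genes in the same fit. In replicates 4 and 5, 2 were higher and 5 lower, against 15.2% and 13.9%. The 11 were Slc2a1, Hk1, Hk2, Pfkl, Pfkp, Tpi1, Pgk1, Eno2, Ldha, Slc16a3 and Pdk3. In control cells at 6 h the fit on replicates 1 to 3 gave 3 higher and 1 lower (6.79% and 6.5% of all genes) and that on 4 and 5 gave 0 higher and 2 lower (7.72% and 4.31%). At 24 h in KO cells they gave 9 higher and 4 lower (9.34% and 7.12%), and 2 higher and 5 lower (14.5% and 12.6%). In the same fits Slc2a1 was higher in KO than in control cells in replicates 1 to 3, by 1.39 at 6 h and 1.44 at 24 h, and had 0.995 and 0.38 in replicates 4 and 5. These fits rest on 3 or 2 arrays a group, and the difference between the sets of replicates was not tested. Pfkfb4 in KO cells at 6 h changed alike in both sets (-1.37 and -1.53), as did Taldo1 (-0.93 and -1.23), and Pfkp was lower in unstimulated KO cells in both (-0.82 and -1.09).

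**Figure D4:**
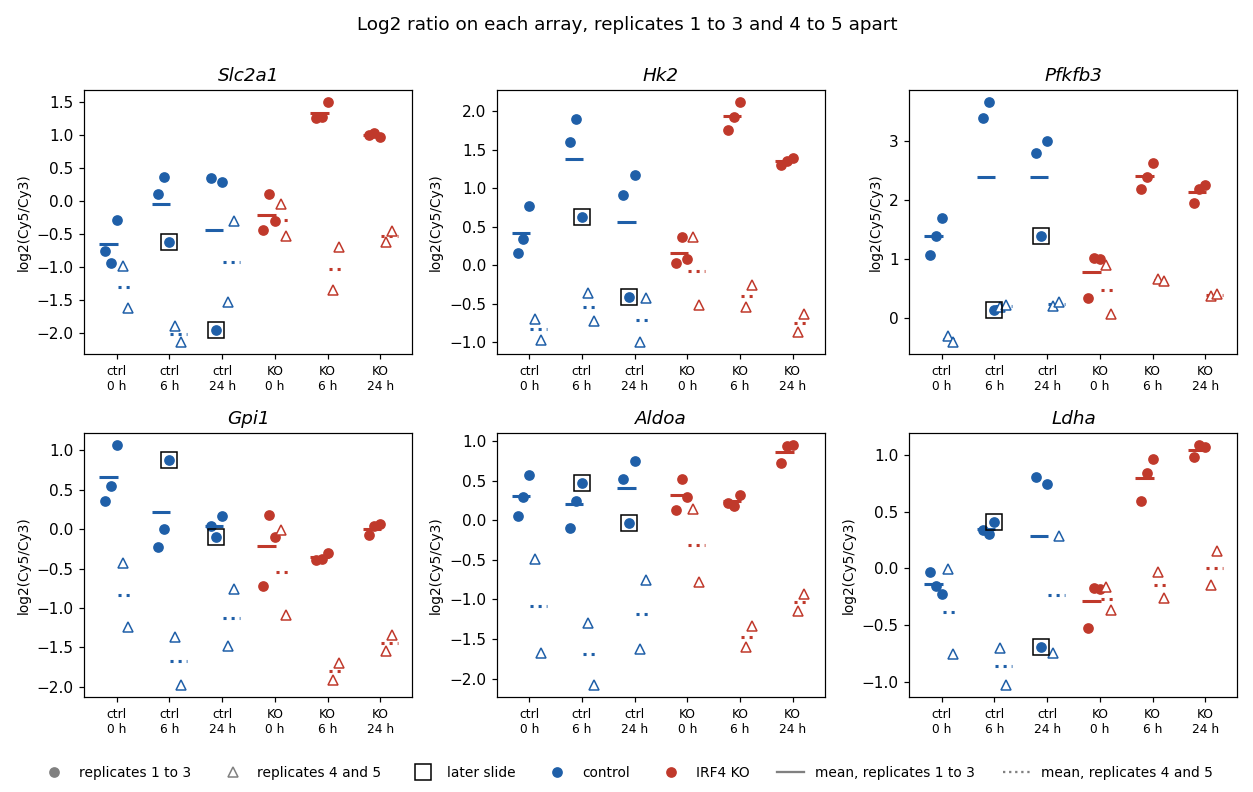
Log2 ratio to the common reference (vertical axes) on each array for 6 genes, by genotype and hours of LPS (horizontal axes); solid lines are means of replicates 1 to 3 (filled circles), dotted lines means of replicates 4 and 5 (open triangles), and squares the 2 arrays of the later slide. The solid line lies above the dotted line in all 6 groups for Slc2a1, Hk2, Pfkfb3, Gpi1 and Aldoa.

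Pgk1, Slc16a3, Ldha, Hk2 and Slc2a1 are known HIF-1 targets, picked as examples from the 11 genes that rose in KO cells of replicates 1 to 3. The pick came after the data were seen. The other listed genes, including those that fell, were not sorted into HIF-1 targets and others. The promoters of the 5 are shown to locate the core of the HIF-1 response element, ACGTG, searched on both strands. RefSeq promoter windows (GRCm38.p6, 250 bases before to 50 after each start) were found for 33 of the 34 genes. ACGTG was in at least 1 window of 19 of the 33 (57.6%), against 21.8% of 27025 genes, and in 22 of their 48 windows (45.8%), against 19.6% of 32851. The 27025 were all genes with a window, expressed here or not. The share among the 11263 tested genes was not counted, so no enrichment is read from these shares. Where a gene has several starts, the one with the most matches is shown. For each gene the 150 bases before that start are printed 5′ to 3′ on the gene's strand, with capitals for ACGTG or its reverse complement CACGT.
Pgk1, chrX:106186950-106187099, plus strand: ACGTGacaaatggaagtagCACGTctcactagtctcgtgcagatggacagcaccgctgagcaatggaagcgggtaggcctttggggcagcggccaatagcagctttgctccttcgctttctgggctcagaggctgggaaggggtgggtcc
Slc16a3, chr11:120948917-120949066, plus strand: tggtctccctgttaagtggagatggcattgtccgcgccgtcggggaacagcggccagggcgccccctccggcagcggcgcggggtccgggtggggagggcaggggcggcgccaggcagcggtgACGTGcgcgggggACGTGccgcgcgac
Ldha, chr7:46845654-46845803, plus strand: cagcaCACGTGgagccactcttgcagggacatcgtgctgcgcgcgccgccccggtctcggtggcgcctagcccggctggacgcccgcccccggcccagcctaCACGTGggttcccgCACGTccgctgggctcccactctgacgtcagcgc
Hk2, chr6:82774455-82774604, minus strand: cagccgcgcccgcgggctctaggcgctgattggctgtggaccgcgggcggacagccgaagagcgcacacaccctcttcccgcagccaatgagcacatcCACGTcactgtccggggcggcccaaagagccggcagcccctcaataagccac
Slc2a1, chr4:119108595-119108744, plus strand: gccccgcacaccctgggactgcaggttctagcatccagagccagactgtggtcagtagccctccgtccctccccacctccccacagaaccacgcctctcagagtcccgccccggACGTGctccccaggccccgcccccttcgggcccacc

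The stretch of Pgk1 held 2 matches, that of Slc16a3 2 and that of Ldha 5. Matches are counted per strand, and Ldha held 2 stretches of CACGTG that each matched on both strands. The palindrome CACGTG, the E-box bound by MYC, contains ACGTG on both strands, and it was in 5 of the 33 genes (15.2%, against 8.09%): Ldha, Pdk2, Pfkfb3, Pfkm and Slc16a1. Of the other 6 genes of the 11, Hk1 and Pdk3 held ACGTG and Pfkl, Pfkp, Tpi1 and Eno2 did not, nor did Pfkfb4. The ETS-IRF composite element, to which IRF4 binds with the partner PU.1 (GGAA and GAAA set 2 bases apart), was in the windows of 1 gene, Pdk1 (3.03%, against 3.16%). The interferon-type element (GAAA repeated after a gap of 2 bases) was in 0 of 33, against 3.99%. A match is only a run of letters, and a window without one says nothing of the factor.

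Genes of the surrounding pathways were read from lists chosen by name. Among 13 tested genes of other glucose and glycogen entry, Slc2a6 (GLUT6) stood out. In unstimulated cells it had 3.54, 3.38, 3.33, 3.70 and 3.47 in control and 1.57, 2.14, 2.00, 2.11 and 1.92 in KO cells (log2 difference -1.53 ± 0.24 SE, 2.90-fold lower, adjusted p = 5.33e-05), with every KO array below every control array. At 6 h of LPS it had 4.81, 4.94, 3.93, 4.37 and 4.38 and 4.97, 4.90, 4.88, 4.57 and 4.22, overlapping. Its rise at 6 h was 1.003 ± 0.24 in control and 2.76 ± 0.24 in KO cells, and at 24 h 0.33 ± 0.24 and 2.12 ± 0.24. The difference of the responses was called at both times (6 h, log2 difference 1.76 ± 0.33 SE, adjusted p = 0.00771; 24 h, log2 difference 1.79 ± 0.33 SE, adjusted p = 0.00705), the one such gene among all the listed pathway genes. With the slide as a fixed block it was 1.67 and -0.19, and neither was called. In the same list Ugp2, which makes UDP-glucose for glycogen, was higher in KO cells at all 3 times (0 h, log2 difference 0.82 ± 0.15 SE, adjusted p = 0.000352; 6 h, 0.54; 24 h, 0.76), at 6 h not without control 6 h replicate 4 or KO 6 h replicate 5 (adjusted p from 0.00306 to 0.0568 over the 30 omissions), and Pgm2l1 was higher at 0 h (1.09).

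Around pyruvate, Me2, the mitochondrial malic enzyme that makes pyruvate from malate, was lower in KO cells at all 3 times (0 h, log2 difference -1.19 ± 0.17 SE, adjusted p = 1.93e-05; 6 h, -0.86; 24 h, -0.69). Dld, the E3 subunit that pyruvate dehydrogenase shares with other complexes, was higher at 6 h (log2 difference 0.58 ± 0.10 SE, adjusted p = 0.000345) and 24 h (log2 difference 0.57 ± 0.10 SE, adjusted p = 0.000315), and Gpt2, an alanine aminotransferase, likewise (1.18 and 0.95). Of 12 such genes 1 was lower at 0 h, 2 were higher and 2 lower at 6 h, and 4 were higher and 1 lower at 24 h. The shares of all genes were 7.14% lower at 0 h, 6.23% higher and 5.89% lower at 6 h, and 6.96% and 8.45% at 24 h. Neither Me2 (-0.23) nor Dld (0.38) was called at 24 h with the slide as a fixed block. The 20 tested genes of the tricarboxylic acid cycle had a median difference between the genotypes of -0.16 at 0 h, -0.38 at 6 h and -0.12 at 24 h. At 6 h 2 were lower (Sdhc -0.47, Mdh1 -0.43), Mdh1 not without control 6 h replicate 3, 4 or 5 or KO 6 h replicate 2, 3 or 4 (adjusted p from 0.0119 to 0.12 over the 30 omissions). At 24 h 1 was higher (Sdhb 0.41), not without control 24 h replicate 2 or 4 or KO 24 h replicate 1, 3, 4 or 5 (adjusted p from 0.0148 to 0.104 over the 30 omissions). With LPS Idh1, the cytosolic isocitrate dehydrogenase, fell in both genotypes (control 6 h, log2 difference -1.32 ± 0.29 SE, adjusted p = 0.00354; KO 6 h, log2 difference -2.32 ± 0.29 SE, adjusted p = 1.63e-06), as did Idh2 at 24 h (control -1.16, KO -0.84) and Idh3g at 24 h (-0.61 and -0.83), in control cells not without control 0 h replicate 1, 2, 3 or 4 or control 24 h replicate 1, 3, 4 or 5 (adjusted p from 0.0022 to 0.0841 over the 30 omissions).

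Of 22 tested genes of HIF-1 and MYC regulation, Hif1a itself rose in control cells at 6 h (log2 difference 1.002 ± 0.33 SE, adjusted p = 0.0484), from 0.38, 0.39, 0.55, 0.27 and 0.05 to 2.10, 2.35, 0.97, 0.52 and 0.69, most in replicates 1 and 2. That call was lost without control 0 h replicate 1, 2, 3, 4 or 5, control 6 h replicate 1 or 2, control 24 h replicate 4 or 5, KO 0 h replicate 1, 2, 3 or 4, KO 6 h replicate 1 or 2 or KO 24 h replicate 1, 2, 3, 4 or 5 (adjusted p from 0.025 to 0.191 over the 30 omissions). In KO cells 7 of the 22 were higher and 2 lower at 6 h, against 14.2% and 12.4% of all genes, with Egln3 (log2 difference 2.20 ± 0.51 SE, adjusted p = 0.00186), Bnip3 (1.65) and Ero1a (1.49) the largest rises, and Myc fell (log2 difference -1.16 ± 0.26 SE, adjusted p = 0.00141). Egln3 encodes an oxygen-sensing prolyl hydroxylase and Bnip3 a mitophagy receptor, and both are HIF-1 targets. Egln3 was also lower in unstimulated KO than in control cells (-1.51, lost without any 1 of 19 arrays), on the same unstimulated KO arrays. At 24 h in KO cells 5 were higher and 2 lower, against 10.3% and 7.85% of all genes. Between the genotypes, Vhl, the ubiquitin ligase subunit that removes HIF-1 alpha, was lower in unstimulated KO cells (log2 difference -1.47 ± 0.26 SE, adjusted p = 0.000245), and Ero1a (1.42), Adm (1.14) and P4ha2 (1.08) were higher at 6 h of LPS, P4ha2 not without control 6 h replicate 4 or KO 6 h replicate 2 or 3 (adjusted p from 0.00511 to 0.0633 over the 30 omissions). With the slide as a fixed block the Adm difference was 0.28, and none of these 3 kept the call. Myc was lower at 24 h in control cells as well (log2 difference -1.24 ± 0.26 SE, adjusted p = 0.00266). The median of the 22 was 0.60 in KO cells at 6 h, against 0.02 for all genes, and -0.05 in control cells, against 0.01. No gene of this list was called for the difference of the responses. Between the genotypes at 0 h the median of the 22 was -0.16, against -0.04 for all genes, and the KO response shares those unstimulated KO arrays.

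Other changed genes of glycolysis and gluconeogenesis included Gpd2, the mitochondrial glycerol phosphate dehydrogenase, which rose at 6 h in both genotypes (control log2 difference 1.32 ± 0.30 SE, adjusted p = 0.00427; KO log2 difference 2.13 ± 0.30 SE, adjusted p = 6.48e-06). Its cytosolic partner Gpd1 fell in both (control -0.88, KO -1.19), as did Slc16a7 (MCT2; -1.15 and -1.56). Fbp1, the gluconeogenic fructose bisphosphatase, fell at 24 h (control log2 difference -2.71 ± 0.68 SE, adjusted p = 0.00938; KO log2 difference -2.49 ± 0.68 SE, adjusted p = 0.0108), and both calls were lost with the slide as a fixed block (-1.40 and -2.04). Among the 10 tested genes of the pentose phosphate route outside the main list, Gsr, glutathione reductase, was higher in unstimulated KO cells (log2 difference 0.94 ± 0.22 SE, adjusted p = 0.00377). At 6 h of LPS Shpk was lower in the controls (log2 difference -0.71 ± 0.16 SE, adjusted p = 0.00383), and Rpe was higher at 6 h in KO cells (log2 difference 0.89 ± 0.21 SE, adjusted p = 0.00204).

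The other genes that the surrounding lists named by size of change follow as log2 differences, all called in the fit on all arrays. Where leaving out 1 array ended a call, that array is named, or, for 3 or more such arrays, their number of the 30 is given. Of glucose and glycogen entry, Gys1, the muscle-type glycogen synthase, was lower in KO cells at 0 h (-0.44, lost without any 1 of 7 arrays). It rose in them with LPS (6 h 0.70; 24 h 0.73). Pgm2l1 fell in KO cells (6 h -1.02; 24 h -1.10). The glycogen phosphorylase Pygl fell at 6 h (-0.91) and ketohexokinase Khk at 24 h (-0.76, lost without any 1 of 18 arrays). Pygb, another glycogen phosphorylase, was lower in KO cells at 6 h (-0.53) and 24 h (-0.49, not without control 24 h replicate 2). The transporter Slc2a8 was lower at 6 h in both genotypes (control -0.62, lost without any 1 of 3 arrays; KO -0.71). In control cells it was higher at 24 than at 6 h (0.71).

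Of glycolysis and gluconeogenesis, Pck2, the mitochondrial PEP carboxykinase, was higher in KO cells at 0 h (0.84, lost without any 1 of 3 arrays) and 6 h (0.76, lost without any 1 of 6 arrays). Slc16a7 was higher at 0 h (0.75, lost without any 1 of 3 arrays). The muscle enolase Eno3 was lower at 0 h (-1.61, lost without any 1 of 4 arrays). Pfkfb2 was lower at 6 h (-0.40, lost without any 1 of 17 arrays). At 24 h of LPS Gpd2 was higher in control cells (1.21). Slc16a7 (control -1.02; KO -1.63) and Gpd1 (control -0.85; KO -1.07) were lower in both. Minpp1 was higher in control cells at 6 h (0.87, not without control 6 h replicate 2) and fell by 24 h (-0.99). In KO cells Pgam2 (0.39, lost without any 1 of 3 arrays) rose and the transporter Slc16a6 fell (-0.91, not without KO 0 h replicate 5 or KO 6 h replicate 4) at 6 h. Bsg, the chaperone of the MCT transporters, rose at 24 h (0.54). From 6 to 24 h Fbp1 fell in both (control -2.51, lost without any 1 of 5 arrays; KO -3.94) and Gpd2 in KO cells (-1.33).

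Of the pyruvate genes, Pdp1, a phosphatase that reactivates pyruvate dehydrogenase, fell in control cells at 24 h (-0.83; from 6 h, -0.67, lost without any 1 of 20 arrays). It fell in KO cells at 6 h (-0.64, lost without any 1 of 3 arrays) and 24 h (-0.75). It was higher in KO than in control cells at 24 h (0.59, lost without any 1 of 8 arrays). Pcx, pyruvate carboxylase, rose at 24 h (control 0.47; KO 0.35). The pyruvate carrier Mpc1 rose at 24 h in KO cells (0.38, lost without any 1 of 17 arrays). In control cells Me2 (6 h -0.73; 24 h -0.63, not without control 24 h replicate 1 or 3) and Gpt2 (6 h -0.69; 24 h -0.73) fell. The citrate carrier Slc25a1 rose in control cells at 6 h (0.56, lost without any 1 of 7 arrays). It was lower in KO cells at that time (-0.60, lost without any 1 of 6 arrays). Dld rose in KO cells at 6 h (0.42). It fell from 6 to 24 h in both (control -0.36, lost without any 1 of 6 arrays; KO -0.37, lost without any 1 of 5 arrays). Pdhx fell over that time in KO cells (-0.49, lost without any 1 of 6 arrays).

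In the tricarboxylic acid cycle Idh1 was still lower at 24 h (control -1.18; KO -1.41). Mdh1 fell at 6 h (control -0.41, lost without any 1 of 19 arrays; KO -0.80), as did Idh3g in KO cells (-0.78). From 6 to 24 h Idh2 (-0.81) and Sdhc (-0.40, lost without any 1 of 4 arrays) fell in control cells. Over that time Sdhb (0.49, lost without any 1 of 3 arrays) and Mdh1 (0.46, lost without any 1 of 6 arrays) rose in KO cells. Of HIF-1 and MYC regulation, Max, the partner of MYC, rose in control cells at 6 h (1.21). It fell from 6 to 24 h in both (control -1.07, lost without any 1 of 3 arrays; KO -1.07, not without KO 6 h replicate 3). Adm fell in KO cells over that time (-0.99, lost without any 1 of 6 arrays). At 24 h in KO cells Egln3 (1.78, not without KO 0 h replicate 1), Bnip3 (1.32, lost without any 1 of 5 arrays) and Ero1a (1.31) were higher and Myc lower (-1.41). Bnip3l was higher in unstimulated KO cells (0.58). It fell in them with LPS (6 h -0.49; 24 h -0.45, lost without any 1 of 7 arrays). Between the genotypes at 24 h Ero1a was higher (0.95, lost without any 1 of 6 arrays) and Vhl lower (-0.75, lost without any 1 of 17 arrays) in KO cells. Of the pentose phosphate route Pgls, its lactonase, fell at 6 h (control -0.35, lost without any 1 of 21 arrays; KO -0.40). At 24 h in KO cells Me1 rose (0.71, not without KO 24 h replicate 4) and Prps2 fell (-0.41).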

How the data were processed

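RNA from 30 samples (6 groups of 5) was hybridised to two-colour Agilent arrays. The deposited scanner files give the median Cy5 and Cy3 intensity and local background of each spot, and the scanner software's log10 ratio of Cy5 over Cy3 per the file headers. The authors' deposited value table holds log2 ratios of sample over reference. The headers of the deposited scanner files name Feature Extraction 10.7.3.1, the submitters' processing notes name limma without a version, and the table correlated with the values computed here at 0.999885 to 0.999998 over probes, with column medians of 0.00584 to 0.0183. The number of arrays limits the precision.

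Intensities were corrected by normexp with an offset of 50 and normalised by loess within arrays in limma 3.58.1 (R 4.3.3), with the 1639 control spots at weight 0, flagged spots left out and local backgrounds marked as non-uniform set to the array's median. Spots of a probe were averaged. Of 41174 probes, 22951 were named through their transcript accession in RefSeq (GRCm38.p6), for 16358 genes. A probe was kept where some group had it well above background in the sample channel on each of its 5 arrays, and the brightest probe stood for a gene, which left 11263 genes, 25 of them with a missing array. No probe was saturated. One limma fit of 6 group means (24 residual degrees of freedom) gave the 11 comparisons, with Benjamini-Hochberg adjustment over all genes and a threshold of 0.05. The fit was tested on simulated data, drawn independently for each gene and array. Those data held no slide effect and no split between sets of replicates, so the simulation does not cover these features of the real arrays.

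The 34 genes, the pathway lists and the tests were chosen with earlier results of these data known. All 34 genes are accounted for, and from each surrounding list up to 3 called genes per comparison and direction with the largest change are named. The alternatives were normalization, background, filter, probe, slide, replicate number, authors' table, each array left out in turn and the compared arrays alone. The fits on replicates 1 to 3, on replicates 4 and 5 and on the slide with these 2 sets were added after seeing the data. The replicate numbers come from the labels. Same-numbered arrays correlated at over 0.1 in all 5 pairs in control cells at 24 against 0 h (0.177 to 0.732), KO cells at 6 against 0 h (0.109 to 0.657) and KO cells at 24 against 6 h (0.791 to 0.875), and there the block is given beside the results.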

Additional observations from a re-analysis of the deposited data

Results flagged for a closer look

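One array lay far from the other 4 of its group, with a gap over 0.71 of the group's range (Dixon's critical value for 5 samples), in 8 of 186 groups of gene and condition, or 4.3%. Chance gives about 1 in 20. Slc2a3 in the control 24 h group was 0.11 in replicate 2 and -0.29 to -0.22 in the others. Eno1 in the control 24 h group was -1.88 in replicate 4 and -1.39 to -1.25 in the others. Eno2 in the control 0 h group was -2.35 in replicate 5 and -2.82 to -2.75 in the others. Eno2 in the control 6 h group was -3.17 in replicate 3 and -2.55 to -2.35 in the others. Slc16a1 in the control 24 h group was -2.80 in replicate 2 and -3.29 to -3.19 in the others. Slc16a1 in the KO 6 h group was -3.17 in replicate 4 and -2.25 to -1.89 in the others. Pdha1 in the control 6 h group was 0.56 in replicate 3 and -0.09 to 0.05 in the others. G6pdx in the KO 0 h group was -0.18 in replicate 5 and 0.39 to 0.59 in the others. These are log2 ratios to the reference. Control 6 h replicate 3 and control 24 h replicate 2, each on this list for 2 genes, are the arrays of the later slide.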

How the results depend on the processing

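The number of the 31 genes called was 8 for KO against control at 0 h, 3 for KO against control at 6 h, 4 for KO against control at 24 h, 2 for control cells at 6 h, 5 for control cells at 24 h, 3 for control cells from 6 to 24 h, 11 for KO cells at 6 h, 9 for KO cells at 24 h, 1 for KO cells from 6 to 24 h, 0 for the response at 6 h and 0 for the response at 24 h. Leaving out each of the 30 arrays in turn gave 6 to 8 for KO against control at 0 h, 2 to 5 for KO against control at 6 h, 3 to 5 for KO against control at 24 h, 1 to 5 for control cells at 6 h, 3 to 5 for control cells at 24 h, 1 to 5 for control cells from 6 to 24 h, 7 to 12 for KO cells at 6 h, 5 to 12 for KO cells at 24 h, 1 to 2 for KO cells from 6 to 24 h, 0 for the response at 6 h and 0 to 1 for the response at 24 h.

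Of the 46 called results of these genes, the later slide, the intensity trend, the value table and the replicate block ended none. Median centring ended 26, the backgrounds as scanned 6, Cy5 alone 4, the scanner software's log ratios 4, the mean over probes 4, no filter on dim probes 2 and a filter on all arrays 1. A fit on the compared arrays alone ended 9 and the slide as a random block 11. The slide as a fixed block ended 24 and reversed 8, and with a term for the 2 sets of replicates it ended 36 and reversed 2. Replicates 1 to 3 alone ended 8 and replicates 4 and 5 alone 25. Of 122 called results of the surrounding lists, median centring ended 59, the slide as a fixed block 57 with 11 reversed, and that block with the 2 sets 78 with 8 reversed. These counts for the fixed block include the comparisons with KO cells in LPS, where the block rests on 1 array of the KO group at each time. On the other shared slides it mostly sets replicates 1 to 3 of a group against 4 and 5 of another. A call ended or reversed by that block is therefore not shown to be wrong. For the median centring and the slide blocks the cause was not tested, and the fits on fewer arrays rest on fewer samples by construction.

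The counts that moved by over 1.5 times were the following. Median centring gave 2 for KO against control at 24 h, 0 for control cells at 6 h, 2 for control cells at 24 h, 1 for control cells from 6 to 24 h, 6 for KO cells at 6 h and 0 for KO cells from 6 to 24 h. Backgrounds as scanned gave 1 for control cells at 6 h. The scanner software's log ratios gave 2 for KO cells from 6 to 24 h and 1 for the response at 24 h. Cy5 alone gave 2 for KO cells from 6 to 24 h and 1 for the response at 24 h. A random block for the slide gave 1 for control cells at 6 h, 3 for control cells at 24 h and 7 for KO cells at 6 h. A fixed block for the slide gave 6 for control cells at 6 h and 10 for control cells at 24 h. Its counts that involve KO cells in LPS rest on 1 array of the KO group at each time and are left out. The same block with the 2 sets of replicates gave 0 for KO against control at 0 h, and its counts with KO cells in LPS are left out likewise. Without the later slide it was 5 for control cells at 6 h, 2 for KO cells from 6 to 24 h and 1 for the response at 24 h. The compared arrays alone gave 0 for control cells at 6 h, 3 for control cells at 24 h, 1 for control cells from 6 to 24 h, 3 for KO cells from 6 to 24 h and 1 for the response at 24 h. Replicates 1 to 3 gave 9 for KO against control at 6 h, 4 for control cells at 6 h and 2 for KO cells from 6 to 24 h. Replicates 4 and 5 gave 2 for KO against control at 24 h, 3 for control cells at 24 h, 0 for control cells from 6 to 24 h, 7 for KO cells at 6 h, 0 for KO cells from 6 to 24 h and 1 for the response at 24 h.

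A block on the replicate number is printed above for the 3 comparisons in which all same-numbered pairs deviated together. Where it moved the count by over 1.5 times the replicate block gave 8 for KO against control at 6 h, 4 for control cells at 6 h, 8 for control cells at 24 h, 6 for control cells from 6 to 24 h, 14 for KO cells at 24 h, 2 for KO cells from 6 to 24 h and 3 for the response at 24 h, and in 2 sets (1 to 3 against 4 and 5) 13 for KO against control at 0 h, 8 for KO against control at 6 h, 4 for control cells at 6 h, 6 for control cells from 6 to 24 h, 14 for KO cells at 24 h, 3 for KO cells from 6 to 24 h and 4 for the response at 24 h. In the other comparisons of 2 groups 3 or 4 of the 5 pairs correlated over 0.1, which neither shows nor excludes that same-numbered samples belong together. In KO cells at 24 against 0 h, 4 of 5 arrays correlated best with their own number. An array correlated best with its own number for 1 to 4 of 5 arrays in a comparison. It was 1 of 5 in control cells at 24 against 0 h, where the block is printed above. The 3 genes that the block called for the response at 24 h were Pgk1 (0.79), Eno1 (0.89) and Taldo1 (-0.94), and the 2 sets added Hk1 (0.65). The block ended none of the 46 calls.

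The values that changed sign were these log2 differences. A fixed block for the slide gave, in KO against control at 0 h Hk1 0.35, Pfkfb3 6.40, Eno1 0.00141, Pdk3 0.22, G6pdx 2.20 and Bnip3l -0.20, in KO against control at 6 h Ugp2 -0.00194, Pygb 0.53 and Slc25a1 0.0444. The same block gave, in KO against control at 24 h Slc2a3 0.31, Hk2 -4.20, Hk3 -2.20, Aldoa -3.73, G6pdx -2.32 and Vhl 0.72, in control cells at 24 h Hk1 0.88 and Hk3 1.81. It also gave, in KO cells at 24 h Hk1 -0.93, Hk2 -5.11, Hk3 -3.12, Pfkfb3 -7.39, Aldoa -5.24, Slc16a3 -0.89, Pdk3 -0.52, Pdha1 0.0998, Pdhb 1.63, G6pdx -2.92, Khk 1.69, Bnip3l 0.70, Pdp1 0.94 and Idh1 0.52, in KO cells from 6 to 24 h Gpi1 -4.35, Aldoa -5.57, Pdk2 -1.04, G6pdx -2.80, Taldo1 -1.45 and Pdhx 0.91, in the response at 24 h Hk2 -8.26, Hk3 -4.93, Gpi1 -5.84, Aldoa -7.72, G6pdx -4.52 and Slc2a6 -0.19. With the 2 sets of replicates added to that block they were, in KO against control at 0 h Pgm2l1 -0.0659, Eno3 1.62 and Gsr -0.45, in KO against control at 6 h Pygb 0.11, in KO against control at 24 h Pdha1 0.0209, in control cells at 24 h Fbp1 0.33 and Gpd1 0.19, in KO cells at 24 h Pdha1 0.32 and Pgm2l1 0.17, in KO cells from 6 to 24 h Adm 0.12. Over replicates 4 and 5 the difference of Pfkfb3 between the genotypes at 0 h was 0.84.

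The number of all genes called was 49 to 2999 over the 11 comparisons, 20 to 1885 with median centring, 35 to 6234 with a fixed block for the slide, 11 to 2577 with the 2 sets added, 37 to 2547 with a random block, 154 to 4781 with the replicate block, 174 to 4886 in 2 sets, 143 to 3616 without the later slide, 40 to 3455 with the compared arrays alone, 54 to 3366 with Cy5 alone, 28 to 2710 with backgrounds as scanned, 35 to 2577 with the filter on all arrays, 55 to 3363 over replicates 1 to 3 and 94 to 3282 over replicates 4 and 5. The limits are these: 5 arrays a group, no slide with both genotypes at the same time and spread that follows replicates 1 to 3 against 4 and 5. Signal over background left Pdk4 out of all tests and Pdk2 out of those with the filter on all arrays.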
